A study of Mus musculus with 11 samples.

Results

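The Hippo pathway is a kinase cascade that holds 2 transcriptional coactivators, YAP and TAZ, out of the nucleus. When the cascade is low, YAP and TAZ enter the nucleus, bind DNA through the TEAD factors and turn on genes for matrix proteins, cytoskeletal regulators and the cascade's own inhibitors. In skin, YAP is known for its role in basal keratinocyte growth, and its location in the cell responds to tension, cell density and injury. The genes described here were 10 mouse genes of this pathway. They were the coactivator genes *Yap1* and *Wwtr1* (which encodes TAZ), the DNA-binding partners *Tead1* and *Tead3*, the kinase gene *Lats2*, the junction-associated regulators *Amotl2* and *Ajuba*, and the targets *Ankrd1*, *Ctgf* (also named *Ccn2*) and *Cyr61* (also named *Ccn1*). All 10 were found in the count tables.

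The study asked how the transcription factor GRHL3 acts in keratinocytes at the edge of a skin wound. Mice were C57BL/6 (C57BL/6J in the methods) littermates of both sexes, aged 8 weeks, either WT or *Grhl3*-cKO, in which a floxed *Grhl3* gene is deleted by Cre recombinase driven from the *Krt14* promoter. The methods give *Krt14-Cre* for the WT littermates too. Wounded samples came from 1 mm of the margin of 4 mm punch wounds at day 3, and unwounded samples from skin away from the wound. Keratinocytes were sorted for the integrin CD49F, and cells with the blood or endothelial markers CD45, CD31 or TER119 were discarded. Because *Krt14-Cre* acts in keratinocytes and their descendants, other skin cells keep the gene.

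RNA-seq counts covered 7 libraries: 2 from WT unwounded, 2 from WT wounded, 1 from *Grhl3*-cKO unwounded and 2 from *Grhl3*-cKO wounded keratinocytes. Depth, as the sum of counts on genes, was 15488699 and 16807451 for WT unwounded, 16653948 and 15418631 for WT wounded, 13497283 for *Grhl3*-cKO unwounded and 15223569 and 14279568 for *Grhl3*-cKO wounded libraries. Levels are given as CPM, counts scaled to the sum of counts on genes. ATAC-seq, which marks open chromatin, was represented by 1 list of regions for each of the 4 conditions, each from a single sample that pooled tissue of more than 1 mouse, so no ATAC-seq value has a replicate. The labels do not say whether libraries with different numbers came from separate mice, so each p-value measures only the spread between these libraries.

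The *Grhl3*-cKO unwounded library stood apart from the other 6 libraries. It had 14854 counts of *Xist*, the RNA of the inactive X chromosome, where the others had 3 to 32. It had 0 counts over 4 Y-linked genes, where the others had 2580 to 3589. The 10 immediate early and dissociation genes, which respond within minutes to stress and tissue handling, summed to 19323 CPM in it and to between 8928 and 12730 CPM in the others. *Jun* was the most abundant gene of that list, *Fos* ranged from 1436 to 3287 CPM, and 9 of the 10 had a lower fitted level in the *Grhl3*-cKO wounded libraries than in this one. The title and the file of this library also give different replicate numbers. Several results that rest on this library are therefore given with and without it, and others only with it. The *Grhl3*-cKO wounding comparison has no other unwounded library and so has no version without it. The part that sex or handling played in all these results was not tested.

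The targeted gene *Grhl3* had 122 and 83.2 CPM in WT unwounded, 110 and 90.0 CPM in WT wounded, 76.2 CPM in *Grhl3*-cKO unwounded and 116 and 104 CPM in *Grhl3*-cKO wounded keratinocytes. Because the counts are per gene, the floxed exons are not seen apart, and the genotype labels could not be checked from them. The authors describe their own checks of the deletion, by qPCR between the loxP sites and by GRHL3 staining. The cell type was checked by marker lists. The 5 basal keratinocyte genes summed to between 30088 and 43685 CPM, led by *Krt14*, with *Krt5* at 10933 to 15372 CPM. The 5 suprabasal genes summed to between 3287 and 8711 CPM, led by *Krt1*, and the 5 hair follicle genes to between 2527 and 5570 CPM, led by *Krt15*, and both were highest in the *Grhl3*-cKO unwounded library. Wound keratins, led by *Krt16* and with *Krt6a* at 320 to 3402 CPM, summed to 4448 and 5557 CPM in WT unwounded and 6495 and 9644 CPM in WT wounded libraries. They summed to 2611 CPM in the *Grhl3*-cKO unwounded library and 7000 and 4834 CPM in the *Grhl3*-cKO wounded libraries. Of other cells, which include the CD31 and CD45 types that the sort was meant to discard, 8 endothelial genes summed to between 1.63 and 26.8 CPM (led by *Plvap*), 6 fibroblast genes to between 11.0 and 46.6 CPM (led by *Col3a1*), 6 leukocyte genes to at most 3.92 CPM (led by *Lyz2*) and 4 melanocyte genes to at most 7.15 CPM (led by *Dct*). The 6 mural genes summed to between 69.0 and 156 CPM, most of it from *Cspg4* alone (63.6 to 154 CPM). Of these lists' first genes, *Pecam1* ranged from 0.0646 to 6.00 CPM, *Acta2* from 0.0741 to 16.5 CPM, *Col1a1* from 1.85 to 15.4 CPM and *Ptprc* from 0 to 0.723 CPM. Endothelial sums were higher in all 4 wounded libraries (10.4 to 26.8 CPM) than in the 3 unwounded ones (1.63 to 3.99 CPM). *Ctgf* and *Cyr61* are also expressed by mural cells and fibroblasts, and by the endothelial cells that the CD31 gate should remove, and the share of such cells in their counts was not tested. In bulk samples, fewer cells of a type and less RNA per cell cannot be told apart.

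The levels of the 10 genes, set on one scale as CPM per kilobase of exon (RPKM) and averaged over the 7 libraries, spanned a wide range. The matricellular target *Cyr61* was highest, at 212 RPKM, and led all 52 Hippo pathway and target genes listed. *Yap1* followed at 51.4 RPKM, *Ajuba* at 28.6, *Wwtr1* at 25.1, *Ctgf* at 21.5 and *Amotl2* at 20 RPKM. *Tead3*, *Tead1* and *Lats2* were lower, at 14.1, 6.50 and 5.92 RPKM. *Ankrd1* was near 0, at 0.0966 RPKM. Without the *Grhl3*-cKO unwounded library, *Ctgf* (17.9 RPKM) fell below *Amotl2* (20.2 RPKM), and *Cyr61* averaged 190 RPKM. Many neighbours in this order overlapped over the libraries. From *Ajuba* (22.9 to 35.7 RPKM) through *Wwtr1* (17.8 to 30.9), *Ctgf* (11.5 to 43.5) and *Amotl2* (16.0 to 25) to *Tead3* (11.5 to 16.1 RPKM), each overlapped the next. *Tead1* and *Lats2* also overlapped (4.75 to 9.82 against 4.20 to 7.73 RPKM).

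**Figure D1:**
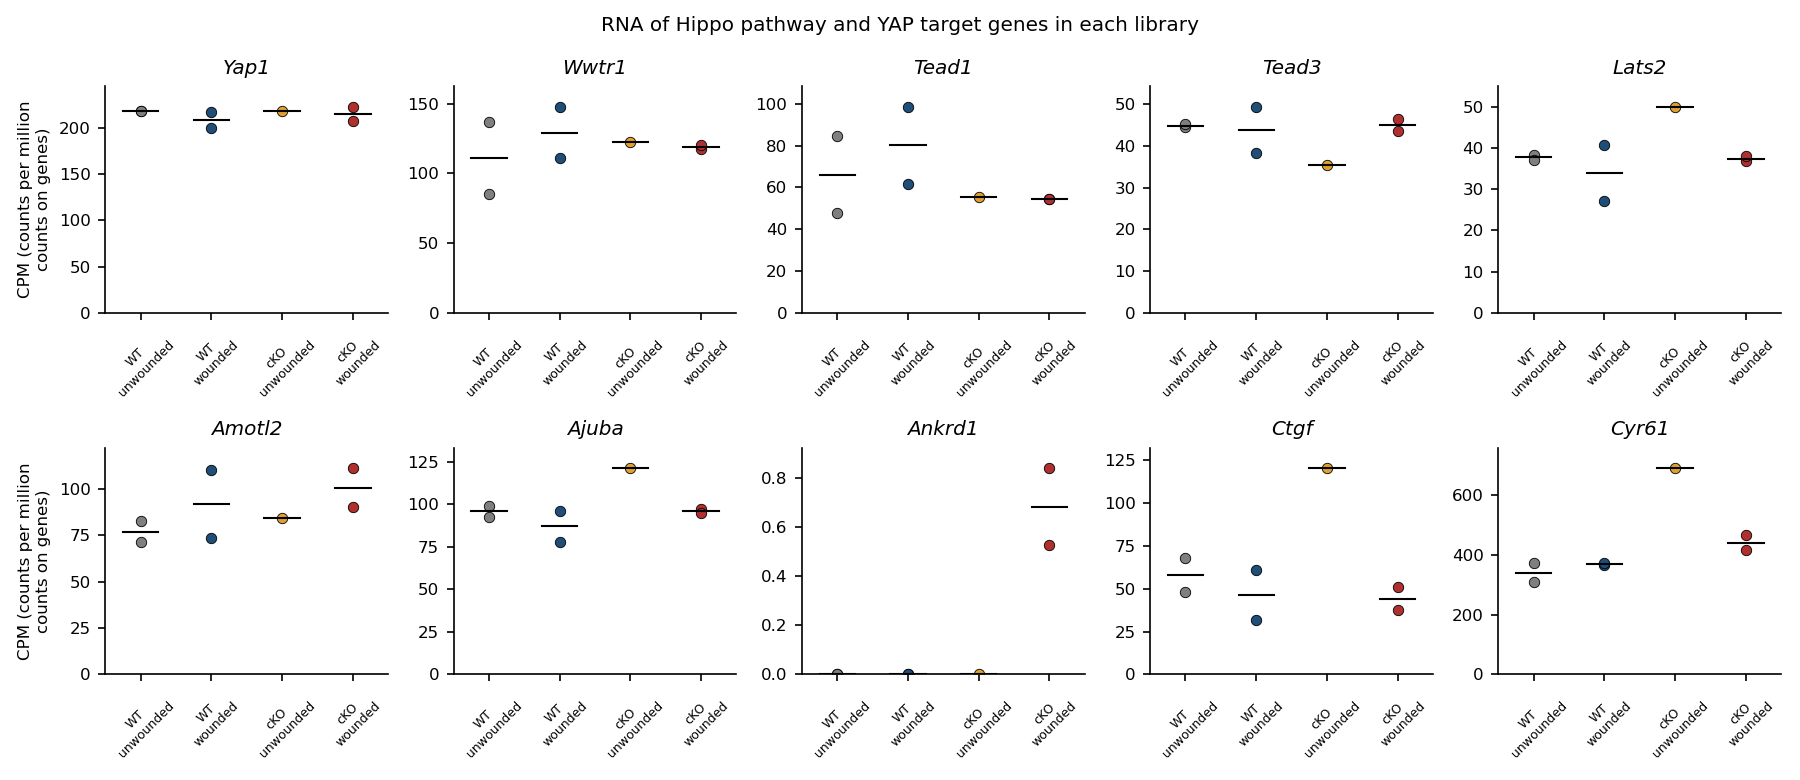
CPM of each of the 10 genes (vertical axes, each starting at 0, with its own scale) in the 4 groups; points are libraries and bars are group means. *Yap1* was level in all libraries, and *Ctgf* and *Cyr61* were highest in the single *Grhl3*-cKO unwounded library, at 121 and 691 CPM.

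Among the coactivators, *Yap1* varied least. It had 218 and 218 CPM in WT unwounded, 200 and 216 CPM in WT wounded, 218 CPM in *Grhl3*-cKO unwounded and 223 and 207 CPM in *Grhl3*-cKO wounded keratinocytes, so its highest library was 1.12 times its lowest. *Wwtr1* had 137 and 85.0 CPM in WT unwounded, 148 and 111 CPM in WT wounded, 123 CPM in *Grhl3*-cKO unwounded and 117 and 121 CPM in *Grhl3*-cKO wounded keratinocytes. Its spread lay within the WT groups, whose libraries overlapped, while the 3 *Grhl3*-cKO libraries were close together. For *Yap1* the fitted WT wounded minus WT unwounded difference was −0.04 on the log2 scale, with a 95% interval from −0.38 to 0.30. For *Wwtr1* it was 0.24, with an interval from −0.22 to 0.71.

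The TEAD factors bind DNA for YAP and TAZ. *Tead1* had 84.4 and 47.8 CPM in WT unwounded, 98.7 and 61.7 CPM in WT wounded, 55.3 CPM in *Grhl3*-cKO unwounded and 54.7 and 54.4 CPM in *Grhl3*-cKO wounded keratinocytes. Both WT wounded libraries were above both *Grhl3*-cKO wounded libraries, but WT libraries numbered 1 were well above those numbered 2 in either condition. *Tead3* had 44.5 and 45.3 CPM in WT unwounded, 49.5 and 38.4 CPM in WT wounded, 35.6 CPM in *Grhl3*-cKO unwounded and 43.6 and 46.5 CPM in *Grhl3*-cKO wounded keratinocytes. Its lowest library was the *Grhl3*-cKO unwounded one.

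Of the regulators, LATS2 is the kinase that phosphorylates YAP and TAZ, AMOTL2 binds YAP at cell junctions, and AJUBA is a LIM protein that restrains LATS kinases. All 3 genes are also known YAP targets. *Lats2* ranged from 27.2 to 50 CPM and *Ajuba* from 77.7 to 121 CPM, and the highest library of both was *Grhl3*-cKO unwounded. *Amotl2* had 71.4 and 82.8 CPM in WT unwounded, 73.7 and 110 CPM in WT wounded, 84.5 CPM in *Grhl3*-cKO unwounded and 90.4 and 111 CPM in *Grhl3*-cKO wounded keratinocytes. Its wounded and unwounded libraries overlapped in WT, and both *Grhl3*-cKO wounded libraries were above the unwounded one.

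The targets CTGF and CYR61 are secreted matricellular proteins of the CCN family, widely used as readouts of YAP activity. *Ctgf* had 48.2 and 68.2 CPM in WT unwounded, 61.1 and 31.8 CPM in WT wounded, 121 CPM in *Grhl3*-cKO unwounded and 50.8 and 37.3 CPM in *Grhl3*-cKO wounded keratinocytes. The *Grhl3*-cKO unwounded library was above every other, and the other 6 overlapped across groups. *Cyr61* had 310 and 371 CPM in WT unwounded, 365 and 373 CPM in WT wounded, 691 CPM in *Grhl3*-cKO unwounded and 415 and 466 CPM in *Grhl3*-cKO wounded keratinocytes. The same library was again the highest, and both *Grhl3*-cKO wounded libraries were above all 4 WT libraries.

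ANKRD1 is a nuclear ankyrin repeat protein and a strong YAP target in many cultured cells. *Ankrd1* had 0 counts in 5 libraries, which allows levels of up to 0.178 to 0.222 CPM at a floor of 3 counts, and was counted only in *Grhl3*-cKO wounded keratinocytes. There it had 8 counts, or 0.526 CPM (exact Poisson 95% interval 0.227 to 1.04), and 12 counts, or 0.840 CPM (0.434 to 1.47). These intervals and floors cover counting error only. The mean, 0.683 CPM, was 3.51 times the higher floor of the WT wounded libraries and 3.07 times the floor of the *Grhl3*-cKO unwounded library. These ratios leave out the counting error of the mean itself, so they are not lower bounds of the fold. *Ankrd1* passed the expression filter only through the group in which it was counted, so its difference is not read as support for any group effect.

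WT wounded and WT unwounded keratinocytes were compared to see how the pathway's RNA stood at the wound front. None of the 10 genes passed an adjusted p of 0.05 with edgeR's quasi-likelihood test, where 0.0285% of the 14045 genes tested did (4 genes). None had an unadjusted P under 0.05 either, where 4.84% of genes tested did. With 1 WT library left out, *Wwtr1*, *Tead1*, *Amotl2* or *Ctgf* fell under it. DESeq2 and edgeR's likelihood ratio test likewise gave 0 of the 10 at an adjusted p under 0.05, and 24 and 49 genes in all. The groups did not overlap for 1 of the 10, *Yap1*, lower in wounded, a share under the 33.5% of all genes tested. The median log2 difference over the 10 was 0.00, against 0.00 over all genes tested, and the 9 with any count in WT ran from −0.30 (*Ctgf*) to 0.30 (*Tead1*). With 2 libraries in each group, the interval for *Ctgf* reached from −0.89 to 0.29 and that for *Cyr61* from −0.19 to 0.47, and both intervals include 0. Leaving out 1 library turned the sign for 8 of the 10 genes, and their values without each library are given with the alternatives. Between same-numbered WT libraries, *Wwtr1*, *Tead1*, *Amotl2* and *Cyr61* were higher in wounded in each pair, and *Yap1* and *Ajuba* lower. *Tead3*, *Lats2* and *Ctgf* moved both ways. Some pair differences were small. In the WT libraries numbered 2, *Cyr61* had 371 CPM in unwounded and 373 CPM in wounded, and *Yap1* 218 and 216 CPM. The share of all genes that moved the same way in both pairs was not counted, so these directions are not read as a wounding response. Whether such pairs share a mouse is not given.

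The wider lists held 42 further genes. In WT, none of the 40 tested passed an adjusted p of 0.05, and 2 (5%) had an unadjusted P under 0.05, close to the 4.84% of all genes tested. Both were YAP and TAZ signature genes, and both were higher in wounded keratinocytes. *F3*, which encodes the clotting initiator tissue factor, had 51.9 and 68.8 CPM in WT unwounded and 94.9 and 93.5 CPM in WT wounded keratinocytes. The groups did not overlap, with a log2 difference of 0.67 ± 0.19 (SE, edgeR adjusted p = 0.578). *Myof*, which encodes the membrane repair protein myoferlin, had 177 and 214 CPM in WT unwounded and 217 and 303 CPM in WT wounded keratinocytes (log2 difference 0.44 ± 0.18, edgeR adjusted p = 0.948). Its closest libraries of the 2 groups differed by little, and the difference was 0.16 without the second WT wounded library. Of the 22 signature genes tested, which include 6 of the 10, 15 had a positive and 6 a negative fitted difference, with a median of 0.15, where 50.4% of all genes tested had a positive one. The 11 genes of the kinase cassette had a median of 0.06 and the 13 upstream regulators one of 0.19, with no P under 0.05 in either. Marker genes moved in the same comparison at an unadjusted P under 0.05. Of the suprabasal genes 3 of 5 and of the hair follicle genes 3 of 5 were lower. Higher were 3 of 4 wound keratins, 4 of 7 endothelial genes tested and 2 of 4 mural genes tested. *Tagln*, 1 of those 2 mural genes, had 11.9 and 0.843 CPM in WT wounded and 0.581 and 0.773 CPM in WT unwounded keratinocytes. The part these cells and states played in the pathway's values was not tested.

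*Grhl3*-cKO wounded and WT wounded keratinocytes were compared to see whether the pathway's RNA differed at the wound front between the genotype labels. None of the 10 passed an adjusted p of 0.05 with edgeR's quasi-likelihood test, and 0.0% of genes tested did. At an unadjusted P under 0.05 there were 0 of the 10, against 4.04% of genes tested. *Tead1* did fall under it with the replicate block, with only the libraries compared, with no filter and with either WT unwounded library or the second WT wounded one left out, and *Ankrd1* with the likelihood ratio test. The *Ankrd1* difference is not read as support, since this gene passed the expression filter only through the *Grhl3*-cKO wounded group. Across all genes, DESeq2 called 3 and edgeR's likelihood ratio test 1, none of them among the 10. Groups did not overlap for *Tead1*, which was lower, and for *Cyr61* and *Ankrd1*, which were higher, where 30.9% of all genes tested did not overlap. For *Tead1* the log2 difference was −0.53 ± 0.26 (SE, edgeR adjusted p = 1), and its interval ran from −1.09 to 0.03. It was −0.16 without the first WT wounded library and −0.82 without the second. For *Cyr61* it was 0.27 ± 0.15 (SE, edgeR adjusted p = 1), with an interval from −0.05 to 0.60. The median over the 10 was 0.11, also with *Ankrd1* set to the ratio of its mean to the floor, against −0.01 over all genes tested.

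Among the further genes, none passed an adjusted p of 0.05 here, and 5 of 40 (12.5%) reached an unadjusted P under 0.05, against 4.04% of all genes tested. All 5 had an edgeR adjusted p of 1. *Tgfb2*, a growth factor gene, had 17.7 and 15.8 CPM in WT wounded and 8.54 and 4.62 CPM in *Grhl3*-cKO wounded keratinocytes. The groups were well separated, with a log2 difference of −1.31 ± 0.35 (SE), and −0.91 without the second *Grhl3*-cKO wounded library. *Nt5e*, which encodes the ectonucleotidase CD73, had 37.3 and 57.1 CPM against 30.5 and 31.7 CPM (log2 difference −0.58, and −0.23 without the second WT wounded library). *Rbms3*, an RNA-binding protein gene, had a log2 difference of −0.79, but −0.33 without the first *Grhl3*-cKO wounded library and −1.44 without the second. *Fat4*, which encodes the atypical cadherin upstream of the cascade, had 3.60 and 3.57 CPM in WT wounded and 6.96 and 8.96 CPM in *Grhl3*-cKO wounded keratinocytes (log2 difference 1.17). It was the only one of these 5 that was higher in *Grhl3*-cKO. Markers of other cells and states moved in the same comparison. Of 4 mural genes tested, 3 were lower with an unadjusted P under 0.05, among them *Acta2* (log2 difference −2.35) and *Cspg4* (−0.54). The other, *Tagln*, had 11.9 and 0.843 CPM in WT wounded and 1.25 and 0.980 CPM in *Grhl3*-cKO wounded keratinocytes. Its difference thus rests on the first WT wounded library. *Cspg4* had 63.6 to 154 CPM over all libraries, where *Acta2* had at most 16.5 CPM, so these genes need not mark the same cells. Of the 5 suprabasal genes 2 were higher, among them *Krt1* (0.77), and of the 10 immediate early genes 4 were higher, among them *Fos* (0.37). All 4 wound keratins had a lower fitted level (median −0.47), 1 of them with an unadjusted P under 0.05. The part they played in the values above was not tested.

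Wounding was also estimated over both genotypes, in a model of genotype plus wounding that assumes the same wounding effect in each. Of the 10 genes, 0 passed an adjusted p of 0.05, against 0.0356% of genes tested (5 genes). With no expression filter *Ctgf* did pass (edgeR adjusted p = 0.000513), where 305 genes did. *Ctgf* alone had an unadjusted P under 0.05, where 6.61% of genes tested did. Its log2 difference was −0.78 ± 0.26 (SE, edgeR adjusted p = 0.445), and 3 of 4 wounded libraries were below the WT unwounded mean. Without the *Grhl3*-cKO unwounded library, the difference was −0.30 (edgeR adjusted p = 0.998), so the value rested on that library. Without the first WT wounded library it was −1.15 (edgeR adjusted p = 0.0113). For *Cyr61* the estimate was −0.19 ± 0.16 with all libraries and 0.15 without the *Grhl3*-cKO unwounded library. Markers also moved in this model at an unadjusted P under 0.05. Lower were 4 of 5 hair follicle, 3 of 5 suprabasal and 3 of 10 immediate early genes, and higher were 3 of 4 wound keratins and, of the genes tested, 4 of 7 endothelial and 3 of 5 fibroblast genes. Of 4 mural genes tested, 1 was higher and 1 lower. Their part in the values of *Ctgf* and of the genes below was not tested. For 0 of the 10 genes did the 4 wounded libraries lie wholly apart from the 3 unwounded ones, where 6.44% of all genes tested did.

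Of the further genes in this model, *F3* had the smallest edgeR p. It was higher in all 4 wounded libraries (93.5 to 123 CPM) than in all 3 unwounded ones (26.7 to 68.8 CPM), with a log2 difference of 1.20 ± 0.25 (SE, edgeR adjusted p = 0.119). DESeq2 gave it an adjusted p of 0.000346, and edgeR's likelihood ratio test 0.00322. Without the *Grhl3*-cKO unwounded library its log2 difference was 0.67 (edgeR adjusted p = 0.648). The adjusted p was 0.0179 without the second WT unwounded library and 0.0199 without the first WT wounded one. *Nuak2*, a kinase gene, and *Gadd45b*, a stress response gene, also had all 4 wounded libraries above the unwounded ones, with log2 differences of 0.92 (edgeR adjusted p = 0.624) and 0.47 (edgeR adjusted p = 0.595). Without the *Grhl3*-cKO unwounded library the differences were 0.38 and 0.21. Their nearest wounded and unwounded libraries differed little, 9.49 against 9.04 CPM for *Nuak2* and 61.5 against 61.3 CPM for *Gadd45b*. Of all 40 further genes tested, 5 (12.5%) had an unadjusted P under 0.05, against the 6.61% given above. Of these 5, *Igfbp3* alone was lower (log2 difference −0.70), and its highest library was the *Grhl3*-cKO unwounded one. The 22 signature genes had 7 positive and 15 negative differences and a median of −0.16, where 51.8% of all genes tested had a positive one. Without the *Grhl3*-cKO unwounded library, 21 of them were tested, with 15 positive and 6 negative differences and a median of 0.15, so the direction turned on that 1 library.

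*Grhl3*-cKO wounded and unwounded keratinocytes were compared by a rule and not by a test, since the unwounded group was 1 library with no spread of its own. The rule instead counts a gene when each wounded library is 2-fold or more above the unwounded one, or each is 2-fold or more below it. This held for 2 of the 10, *Ctgf*, lower, and *Ankrd1*, higher, where 9.55% of genes tested were counted (1341 genes, 814 higher and 527 lower). The fitted log2 difference was −1.46 for *Ctgf* and −0.66 for *Cyr61*, and the median over the 10 was −0.04, against 0.02 over all genes. Of the 22 signature genes tested, 3 were counted as higher (*F3*, *Nuak2* and *Ankrd1*, of which the last is not read as support, as said above), and 5 as lower, among them *Nt5e* and *Tgfb2*. The 23 signature genes summed to 3279 CPM in the unwounded library and to 2251 and 2247 CPM in the wounded ones, against 1936 to 2223 CPM in the 4 WT libraries. Much of this gap came from 2 abundant genes. *Igfbp3*, also counted as lower, had 542 CPM in the unwounded library and 151 and 155 CPM in the wounded ones. *Cyr61* had 691 CPM against 415 and 466 CPM. Other signature genes went the other way, and *F3*, *Nuak2* and *Gadd45b* were lowest in the unwounded library. Markers also met the rule. Higher were 4 of 7 endothelial, 3 of 5 fibroblast, 2 of 4 wound keratin and 2 of 3 melanocyte genes tested. Also higher were 1 of 3 leukocyte and 1 of 5 suprabasal genes tested, and 1 of 5 hair follicle genes was lower. Of 4 mural genes tested, 1 was higher and 1 lower. The summed immediate early genes were highest in this library, as given above, but 0 of the 10 met the rule. The part these markers played was not tested.

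**Figure D2:**
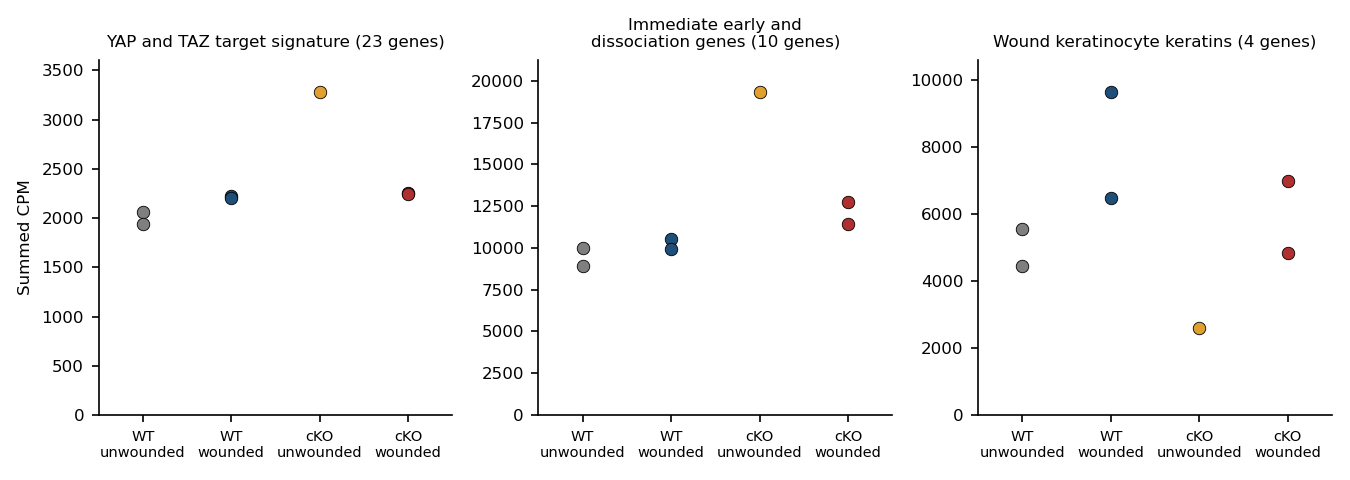
Summed CPM (vertical axes start at 0) of the YAP and TAZ target signature, the immediate early and dissociation genes and the wound keratins in each of the 7 libraries (points). The *Grhl3*-cKO unwounded library was highest for the first pair of lists, at 3279 and 19323 CPM, and lowest for the wound keratins, at 2611 CPM.

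The genes whose profiles over the 7 libraries were most like those of *Ctgf* and *Cyr61* were sought among 10998 genes outside the lists. For *Ctgf* they were *Tmem246* (Pearson r of log2 CPM 0.989), *Golph3l* (0.976) and *Pparg* (0.971). For *Cyr61* they were *Slc39a8* (0.985), *Vps13c* (0.985) and *Il34* (0.969). All 6 were highest in the *Grhl3*-cKO unwounded library, for example *Slc39a8* at 78.2 CPM there and 24.6 to 44.7 CPM elsewhere, so these profiles share that 1 library. Over the other 6 libraries the 6 correlations ran from 0.869 to 0.975, but the genes were picked for them. *Ctgf* and *Cyr61* correlated with each other at 0.612 over the 7 libraries and at −0.293 without the *Grhl3*-cKO unwounded one.

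Open chromatin was examined in the deposited ATAC-seq regions (mm10) that lay in a gene or within 5000 bases of it. The lists held 10769 regions for WT unwounded, 36872 for WT wounded, 29364 for *Grhl3*-cKO unwounded and 22474 for *Grhl3*-cKO wounded keratinocytes. Near the 10 genes there were 11, 31, 25 and 19 regions in these lists. A region was present for 6 of the 10 in WT unwounded, where 33.3% of all genes had one, and for 9 in WT wounded, where 60.7% did. It was present for 9 in *Grhl3*-cKO unwounded, where 56.7% of genes had one, and for 7 in *Grhl3*-cKO wounded, where 47.7% did. Of the 10, 3 (*Lats2*, *Ctgf* and *Cyr61*) had a region in WT wounded and none in WT unwounded, against 27.7% of all genes. The lists differed in length, and with each limited to its 10769 regions of smallest p, the counts near the 10 genes were 11, 5, 7 and 9, so the order of the WT lists turned around. These differences between lists can therefore not be told apart from list length.

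The starts of the genes differed in their regions. How many of all genes had a region over a start in each list was not counted. The WT unwounded list was the shortest, at 10769 regions, so absence from it cannot be told apart from list length. *Yap1* had a region over an annotated start in all 4 lists. *Wwtr1*, *Lats2*, *Amotl2*, *Ctgf* and *Cyr61* had one in 3 lists and not in that of WT unwounded, where the nearest *Wwtr1* region lay just upstream of the start. *Tead1* had one in WT wounded and *Grhl3*-cKO unwounded, and in the other 2 lists a region just upstream. Merged over the lists, that of *Ctgf* spanned chr10:24595426-24596044, with a fold enrichment over local background of 3.79 in WT wounded, 3.48 in *Grhl3*-cKO unwounded and 3.78 in *Grhl3*-cKO wounded keratinocytes. That of *Cyr61* spanned chr3:145649884-145650252, with fold enrichments of 3.88, 3.52 and 4.04. *Tead3* had a region just upstream of its start, chr17:28350852-28351177, in WT wounded only, and *Ajuba* had regions in an intron, at chr14:54574282-54574804 and chr14:54575675-54575876. *Ankrd1*, at 0 counts in most libraries, had no region in any list. Most other regions lay in introns of the long genes. Of 9 regions near *Wwtr1*, merged over the lists, 7 were intronic, 1 touched an exon and 1 was over the start.

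**Figure D3:**
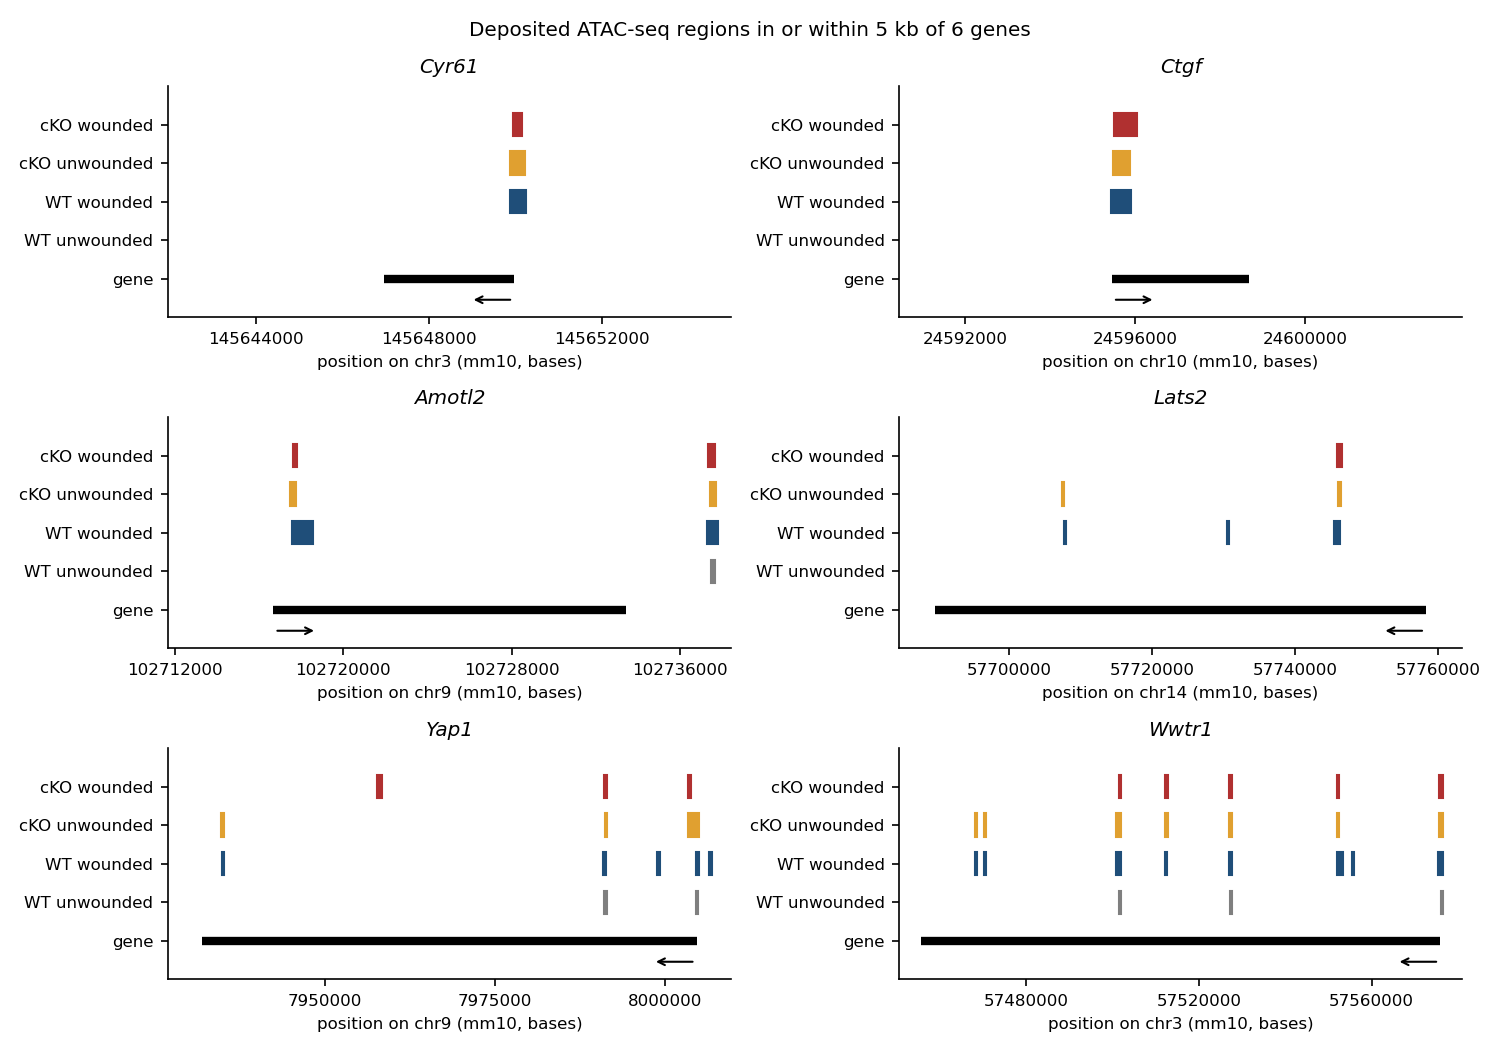
Deposited ATAC-seq regions (coloured blocks, 1 row for each of the 4 lists) along 6 genes with 5000 bases on each side; the horizontal axis is the position in bases (mm10), the black bar is the gene and the arrow marks its outermost annotated start and direction, with some transcripts starting further in. Narrow regions are drawn at a minimum width. The regions over the starts of *Cyr61*, *Ctgf*, *Amotl2* and *Lats2* are in 3 rows and missing from WT unwounded, the shortest list.

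Promoter sequences were searched because the regions over several starts differed between lists. RefSeq promoters (GRCm38.p6, 250 bases before to 50 bases after the start) were matched for 8 of the 10 genes, all but *Tead1* and *Ctgf*. The letters GGAATG, or CATTCC on the other strand, to which TEAD factors are known to bind, were present in a promoter of all 8, and in 16.6% of the 27025 genes in the table. Of the other Hippo list genes, 10 of the 31 matched had them (32.3%). The letters AACNNGTT, the core of the GRHL motif and its own reverse complement, were in 0 of the 8 and in 4.77% of all genes. TGANTCA, the AP-1 motif, was in 0 of the 8 and in 8.97% of all genes. These 3 motifs were chosen after the data were seen. Several of the 8 genes were picked as known TEAD targets, so the share was not tested, and a match is a description of letters, not a binding site.

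There were 13 separate TEAD matches in the promoters of the 8 genes. The 30 bases around 10 of them, on the gene's strand with the match in capitals, are printed to show where they lie relative to the deposited regions. That of *Wwtr1* (chr3:57576029-57576058, minus strand) lies in a region of each of the 4 lists. That of *Yap1* (chr9:8004720-8004749, minus) lies in regions of 3 lists and just beyond the end of the WT unwounded region over the same start, which the printed window still touches. Those of *Cyr61* (chr3:145650071-145650100, minus), *Amotl2* (chr9:102717727-102717756, plus) and *Lats2* (chr14:57746102-57746131, minus) lie in regions of 3 lists, and WT unwounded had no region over these starts. The outermost of 4 *Tead3* matches (chr17:28350970-28350999, minus) lies in a region found in 1 list. Both *Ankrd1* matches (chr19:36120037-36120066 and chr19:36119950-36119979, minus) and both *Ajuba* matches (chr14:54577830-54577859 and chr14:54577808-54577837, minus) lie in none.
Yap1: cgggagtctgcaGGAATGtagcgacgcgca
Wwtr1: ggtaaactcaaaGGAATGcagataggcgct
Cyr61: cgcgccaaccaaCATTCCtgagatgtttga
Amotl2: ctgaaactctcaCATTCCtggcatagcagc
Lats2: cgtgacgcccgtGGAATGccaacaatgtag
Tead3: gacgacgagcgaGGAATGgggtgcgcggga
Ankrd1, outer: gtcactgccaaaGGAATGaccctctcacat
Ankrd1, inner: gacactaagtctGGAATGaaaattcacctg
Ajuba, outer: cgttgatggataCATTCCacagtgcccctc
Ajuba, inner: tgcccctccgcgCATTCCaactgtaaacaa

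The *Cyr61* match lies 103 bases before the RefSeq start, in the middle of the region that was listed in 3 conditions. The 250 bases before that start (chr3:145649986-145650235, minus strand) are given whole, since this gene had the highest level per length and the match is inside a listed region.
Cyr61 promoter: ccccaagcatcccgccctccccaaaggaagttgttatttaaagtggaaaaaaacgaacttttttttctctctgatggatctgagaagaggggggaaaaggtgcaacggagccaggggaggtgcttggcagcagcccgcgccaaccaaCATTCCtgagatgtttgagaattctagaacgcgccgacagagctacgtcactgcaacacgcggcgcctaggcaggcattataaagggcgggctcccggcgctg
Regions near the 10 genes held the TEAD letters in the 300 bases at their middle in 6 of 11 cases in WT unwounded, 9 of 31 in WT wounded, 8 of 25 in *Grhl3*-cKO unwounded and 10 of 19 in *Grhl3*-cKO wounded keratinocytes. Over all regions of those lists the shares were 15.1%, 17.9%, 17.3% and 17.0%. The AP-1 letters were in 5, 8, 5 and 8 of these regions in the same order, against 24.4%, 27.7%, 27.3% and 27.8% of all regions. The GRHL letters were in 1, 1, 0 and 1, against 5.55%, 6.56%, 6.22% and 6.28%. Many regions near the 10 genes are the same place in several lists, so these counts are not independent.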

How the data were processed

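For RNA-seq the authors deposited a count of reads per gene symbol in each of 7 libraries, in whole numbers. Their notes name kallisto and mm10, and the program that wrote the counts is not given in the sources used here. For ATAC-seq the authors deposited 1 list of MACS2 broad regions per condition. The deposited columns hold a fold enrichment (a ratio to local background), a −log10 p-value, a −log10 q-value and a score, which was not used. Each list is from a single sample, in which the authors pooled tissue of more than 1 mouse.

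Tally lines that name no gene entered neither library sizes nor tests. Reads without a unique alignment were 3.46% to 4.74% and ambiguous reads 1.34% to 1.45% of all counts, tally lines included. CPM was computed over gene counts. All 7 libraries were fitted in 1 model of 4 groups by edgeR 4.0.16 (R 4.3.3), with TMM normalization, filterByExpr and a two-sided quasi-likelihood test. Adjusted p-values are Benjamini-Hochberg values over 14045 genes. The biological coefficient of variation was 31.6%, and 32.7% in the model over both genotypes. Wounding over both genotypes came from a model of genotype plus wounding, and the *Grhl3*-cKO wounding comparison from a 2-fold rule on log2 CPM with a prior count of 2. Replicates differed by more than sampling noise (chi-square per degree of freedom at least 30.5). Regions were assigned to genes of GENCODE vM21 by an overlap of at least 1 base. RPKM used the union of exons. The code was tested on simulated data.

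The members and gene lists were chosen with earlier results of these data known. Named genes followed a rule: all members, *Grhl3*, other pathway genes with an adjusted p under 0.05 or up to 3 per list and comparison with the smallest P under 0.05, the most abundant and first gene of each marker list, and the 3 genes most correlated with *Ctgf* and *Cyr61*. *Xist*, the 4 Y-linked genes and *Igfbp3* were chosen after their values were seen. Alternatives were RLE factors, DESeq2 1.42.0, the likelihood ratio test, other filters, a replicate block, only the libraries compared, each library left out, other prior counts, and other thresholds, distances and overlaps for regions. Python 3.11.15, numpy 2.4.6, pandas 2.3.3 and matplotlib 3.10.9 were used.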

Additional observations from a re-analysis of the deposited data

Results flagged for a closer look

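For *Nt5e*, both WT wounded libraries were above both WT unwounded libraries, while both *Grhl3*-cKO wounded libraries were below the unwounded one. Mean levels were 47.2 CPM in WT wounded and 35.4 CPM in WT unwounded keratinocytes, against 31.1 CPM in *Grhl3*-cKO wounded and 82.7 CPM in the single *Grhl3*-cKO unwounded library. *Tgfb2* had the same opposite directions, with 16.7 CPM in WT wounded and 13.6 CPM in WT unwounded keratinocytes, against 6.58 CPM in *Grhl3*-cKO wounded and 24.7 CPM in the *Grhl3*-cKO unwounded library. In WT the nearest libraries differed little, 37.3 against 36.8 CPM for *Nt5e* and 15.8 against 14.6 CPM for *Tgfb2*, and the WT rise of *Nt5e* rests on the second wounded library (57.1 CPM). The difference in wounding response between genotypes was not tested for either gene, and it rests on the library that stood apart. None of the 10 members met this condition of opposite directions without overlap, against 10.6% of all genes tested. Of the 50 Hippo and target genes tested 7 met it, and of the 10 immediate early genes 3 did. Of the 22 signature genes tested, *Nt5e* and *Tgfb2* were the only 2. Some of the 7 ran the reverse way, lower in WT wounded and higher in *Grhl3*-cKO wounded keratinocytes.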

How the results depend on the processing

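Over 42 pairs of a named gene and a comparison, 270 of 275 values from alternatives other than leaving out a library kept their direction and their side of an adjusted p of 0.05. In 4 cases a gene crossed to under 0.05, all in wounding over both genotypes: *F3* with DESeq2, the likelihood ratio test and no filter, and *Ctgf* (adjusted p = 0.000513) with no filter. The adjusted p of *Ctgf* ran from 0.000513 to 0.998 over all alternatives. In 1 case the sign changed, for *Grhl3* between the WT groups, from −0.02 to 0.0016 with the replicate block.

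Counts of genes with an adjusted p under 0.05 moved with the test and filter; the cause was not tested. For WT wounding (4 genes) DESeq2 gave 24, the likelihood ratio test 49, no filter 96, a minimum of 10 counts per library 0, and only the libraries compared 0. For *Grhl3*-cKO against WT wounded (0 genes) DESeq2 gave 3, the likelihood ratio test 1 and no filter 51. For wounding over both genotypes (5 genes) these gave 126, 117 and 305, and at least 10 counts gave 2. The replicate block gave 6, 0 and 4. Whether same-numbered WT libraries come from the same mouse is not given. The block joins *Grhl3*-cKO libraries that are not from 1 mouse, since the unwounded one differs in *Xist* and Y-linked counts. Their deviations correlated at 0.155 between the WT groups and −0.0369 between the wounded groups. Leaving out each library gave 0 to 29, 0 to 21 and 0 to 119 genes, the most without WT wounded 1, WT wounded 2 and WT wounded 1 in turn. The 2-fold rule counted 1341 genes, 459 when limited to genes with at least 10 counts in every library (1 member, since *Ankrd1* was removed), and 2597 to 2731 with 1 wounded library left out.

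Leaving out a library changed the sign in 25 of 285 cases. Between the WT groups, log2 differences ran from −0.12 to 0.019 for *Yap1*, −0.070 to 0.64 for *Wwtr1*, −0.072 to 0.78 for *Tead1*, −0.20 to 0.15 for *Tead3*, −0.44 to 0.12 for *Lats2*, −0.056 to 0.54 for *Amotl2*, −0.30 to 0.034 for *Ajuba*, −0.84 to 0.077 for *Ctgf* and −0.28 to 0.30 for *Grhl3*. Between the wounded groups they ran from −0.0095 to 0.16 for *Yap1*, −0.28 to 0.12 for *Wwtr1*, −0.098 to 0.25 for *Tead3*, −0.083 to 0.48 for *Lats2*, −0.11 to 0.49 for *Amotl2* and −0.43 to 0.49 for *Ctgf*. Over both genotypes they ran from −0.063 to 0.28 for *Wwtr1*, −0.050 to 0.36 for *Tead1*, −0.0031 to 0.24 for *Tead3*, −0.33 to 0.15 for *Cyr61* and −0.013 to 0.41 for *Grhl3*. Where a group kept 1 library, its spread was assumed to be that of the other groups.

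For regions near members, a q of at most 0.01 left 7, 24, 19 and 17 regions near 4, 9, 7 and 7 members (28.5%, 56.5%, 47.9% and 43.2% of all genes). A fold enrichment of at least 4 left 2, 12, 10 and 13 regions near 2, 5, 4 and 6 members in the 4 lists (22.9%, 48.1%, 39.2% and 38.7% of all genes), so the WT lists differed by 10 regions. Lists of equal length left 11, 5, 7 and 9 regions near 6, 2, 3 and 3 members (33.3%, 30.3%, 31.6% and 30.4% of all genes), and the WT wounded minus WT unwounded difference turned from 20 to −6. Limits are 2 libraries or fewer a group, 1 region list a condition and counts that do not separate exons.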
